A study of Homo sapiens with 6 samples.

Results

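The translation initiation factors and the 4E-binding proteins (4E-BPs) were followed in NCI-H660 cells, an established line of neuroendocrine prostate cancer (NEPC). Members were the rows of the deposited table whose gene symbol began with EIF and a digit from 1 to 6. *EIF1AY* and the eIF2α kinases, whose symbols start with *EIF2AK*, were left out. The rule used symbols alone and found 50 of the 17177 genes in the table. By symbol, 4 belonged to the eIF1 group, 6 to eIF2, 5 to eIF2B, 14 to eIF3, 12 to eIF4, 3 to the 4E-BPs, 5 to eIF5 and 1 to eIF6.

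The cells, labelled WT, were treated with pyrvinium pamoate (PP), an anthelmintic drug, or with PBS as the control, and RNA was collected on day 3. Each treatment had 3 libraries. The labels do not say whether these came from separate cultures, so P values measure the spread between these libraries. The results describe 1 cell line at 1 time point, and the PP concentration for these cells was not found in the sources used here.

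Initiation brings the small ribosomal subunit to an mRNA and places it on a start codon. The eIF2 complex delivers the initiator tRNA and is recharged by its exchange factor eIF2B, while eIF1, eIF1A, eIF3 and eIF5 help the subunit to scan and to recognise the start codon. The cap is bound by eIF4E, which joins the scaffold eIF4G and the helicase eIF4A to form eIF4F, and hypophosphorylated 4E-BPs occupy the eIF4G site on eIF4E. Phosphorylation of eIF2α by stress kinases and of the 4E-BPs by mTOR are the best known switches of the pathway. RNA levels report neither phosphorylation nor protein.

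Levels are given as FPKM, which counts fragments per length of gene and per library size, so genes can be compared per length. Fold changes without a scale are ratios of mean FPKM. The log2 fold changes are differences (PP minus PBS) of mean log2(FPKM + 1), with the SE and the adjusted p of limma, and a member was called when its adjusted p was under 0.05. Of the 50 members, 48 had a mean FPKM of at least 1 and were fitted with 11726 genes in all. *EIF3CL* and *EIF4EBP3* fell below that level.

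The start codons of these genes lie in a sequence context that eIF1, eIF1A and eIF5 are known to read during scanning. The strong context has a purine at -3 and G at +4, counted from the A of the ATG as +1. Windows of 6 leader bases, the ATG and the next base are shown for members with large changes of different groups and for *EIF3B*, the remaining member with neither base. The -3 base, the ATG and the +4 base are in capitals.
*EIF1*: tatCgtATGT
*EIF1B*: tatCgcATGT
*EIF3B*: gggCccATGC
*EIF5*: gccAaaATGT
*EIF2S2*: gcaGccATGT
*EIF4G3*: cagAcaATGA
*EIF4E2*: gagAggATGA
*EIF4EBP2*: acaGccATGT
*EIF4B*: cccAacATGG

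The windows were read from the MANE Select transcripts of GENCODE 44 mapped to GRCh37, in which 49 of the 50 members had an annotated ATG start. *EIF1* and *EIF1B* have C at -3 and T at +4, and *EIF3B* has C at both positions. These 3 members made up 6.12% of the 49, while 6.05% of all 18554 transcripts and 5.6% of the 11483 fitted ones had neither base. Both bases of the strong context were present in 22 of the 49 members, or 44.9%, against 47.3% of fitted transcripts. The windows shown are a selection, in which *EIF4B* is the 1 such member. *EIF2A*, which also had a large change but is not shown, has both bases as well. The letters ATG were found upstream in the leader of 8 of the 49 members, or 16.3%, against 40.3% of fitted transcripts. This share depends on leader length, which was not matched. Those 8 members were *EIF2D*, *EIF2S1*, *EIF2S2*, *EIF3B*, *EIF4G1*, *EIF4G3*, *EIF5* and *EIF5B*, and 6 of them were higher with PP, as given below. For comparison, 26 of the 48 fitted members, or 54.2%, and 38.1% of all fitted genes were higher. The share among all genes with an upstream ATG was not computed, so no link to the rise is drawn. The leader of *EIF5* held 3 upstream ATGs in 441 bases and that of *EIF4G3* held 6 in 631 bases.

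With PP, 26 of the 48 fitted members were higher, or 54.2%, against 38.1% of all fitted genes. 8 members were lower, or 16.7%, against 34.4%. In either direction 70.8% of members and 72.5% of all genes were called, so a call by itself was common in this comparison. The median log2 fold change was 0.20 over the fitted members and 0.022 over all fitted genes. The FPKM of all 50 members summed to 3384 ± 5.73 FPKM in PBS and 3837 ± 22.7 FPKM in PP (SD, n = 3), a ratio of 1.13. The same ratio over every gene in the table was 0.965. In bulk RNA, a change in the number of cells of a kind and a change in RNA per cell cannot be told apart.

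A log2 fold change of at least 0.5 with a call was found for 10 members upward, or 20.8%, against 11.3% of all fitted genes. They were *EIF1*, *EIF4EBP1*, *EIF5*, *EIF1B*, *EIF4G3*, *EIF2S2*, *EIF2B2*, *EIF3M*, *EIF2A* and *EIF4B*. Downward, *EIF4EBP2* and *EIF4E2* passed the same limits, or 4.17% against 12.5%. At the cutoff named in the study's methods, an unadjusted P under 0.001 and a log2 fold change past 1 or -1, *EIF1* and *EIF4EBP1* were higher, or 4.17% against 2.24%, and 0 members were lower, against 2.93%. The values of PP and PBS libraries did not overlap for 36 of the 48 members, or 75%, which is also the share of all fitted genes (39.5% with PP above and 35.5% with PP below). 26 of them were above and 10 below.

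**Figure D1:**
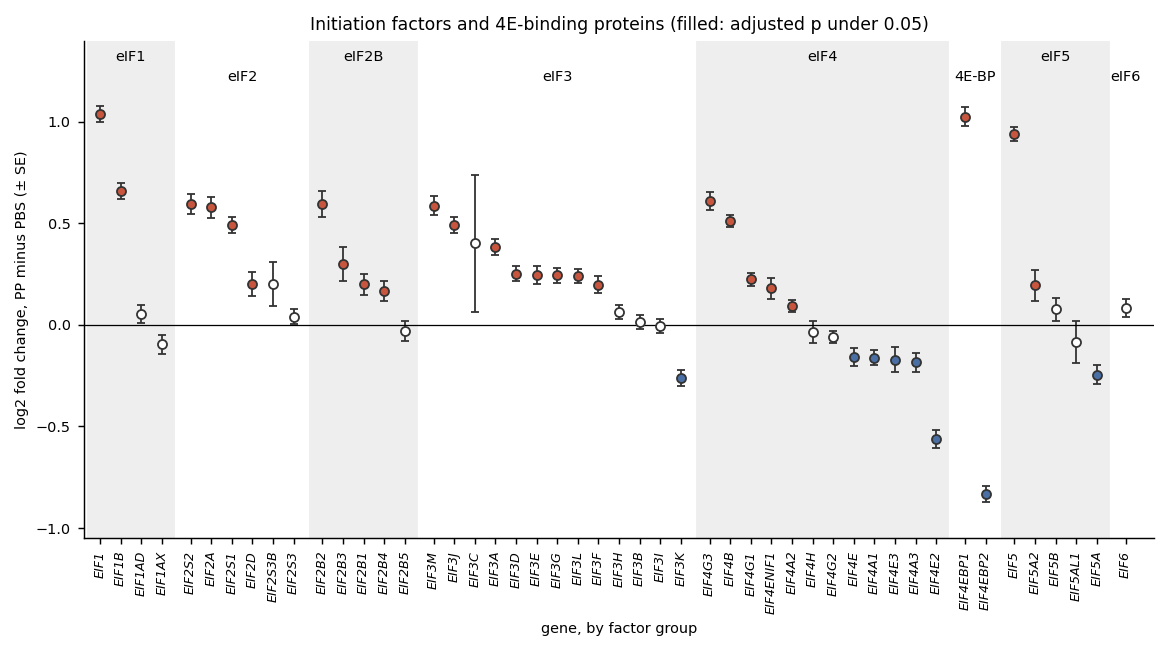
Log2 fold change (PP minus PBS, y axis, bars ± SE) of the 48 fitted members by factor group on the x axis. Filled circles have an adjusted p under 0.05, red above 0 and blue below 0, and open circles do not. *EIF1* at 1.04 and *EIF4EBP1* at 1.03 are highest, and *EIF4EBP2* at -0.83 is lowest.

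In the eIF1 group, which includes the small factors that hold the scanning ribosome open until a start codon is met, *EIF1* and *EIF1B* rose and the other 2 members were not called. *EIF1* (ENSG00000173812, chr17:39845137-39848920, plus strand, GRCh37) had an FPKM of 129.9, 137 and 139 in the PBS libraries and 291, 276 and 269 in the PP libraries. Every PP library was thus close to or above the doubled PBS mean, and the groups did not overlap. The means were 135 ± 4.64 in PBS and 279 ± 10.8 in PP (SD, n = 3), a ratio of 2.06 (log2 fold change 1.04, SE 0.039, adjusted p = 5.99e-09). *EIF1B* (chr3:40351198-40353915, plus strand), its paralog, had an FPKM of 57.7, 58.3 and 62.0 in the PBS libraries and 91.0, 95.4 and 96.5 in the PP libraries. All PP values again lay above all PBS values, with a ratio of means of 1.59 (log2 fold change 0.66, SE 0.04, adjusted p = 1.99e-07).

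*EIF1AX*, the X-linked gene of eIF1A, had an FPKM of 26.4, 26.1 and 25.8 in the PBS libraries and 25.4, 22.7 and 25.0 in the PP libraries. Its PP libraries were all lower by a small margin (log2 fold change -0.10, SE 0.047, adjusted p = 0.0915). Its Y-linked copy was not analysed here and could share reads with it. Without PP replicate 1 its adjusted p was 0.0457, and it is given here as not called. *EIF1AD*, which carries an eIF1A-like domain, was at 17.2 ± 0.213 in PBS and 17.9 ± 0.710 in PP (0.054, adjusted p = 0.284). The group summed to 238 ± 6.39 FPKM in PBS and 415 ± 7.77 FPKM in PP (SD, n = 3), a ratio of 1.75, the highest of the 8 groups.

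The eIF5 group joins factors of different roles under 1 number. *EIF5* (chr14:103799881-103811362, plus strand), the GTPase-activating protein of eIF2 that acts when the start codon is recognised, had an FPKM of 67.5, 67.5 and 68.5 in the PBS libraries and 130.1, 128 and 135 in the PP libraries. The 3 PBS libraries lay close together and far below the PP libraries. The ratio of means was 1.93 (log2 fold change 0.94, SE 0.034, adjusted p = 4.63e-09).

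*EIF5A*, the hypusinated factor now known mainly for elongation and termination, fell. Its FPKM was 69.0, 66.8 and 71.9 in the PBS libraries and 62.2, 56.8 and 56.0 in the PP libraries, with no overlap, and PBS was 1.19 times PP (log2 fold change -0.24, SE 0.047, adjusted p = 0.000866). Its near-identical copy *EIF5AL1* was at 1.15 ± 0.0647 in PBS and 1.05 ± 0.294 in PP (-0.084, adjusted p = 0.488), and reads could be split between them. *EIF5A2*, the paralog with low levels here, was at 1.44, 1.37 and 1.31 in the PBS libraries and 1.80, 1.47 and 1.90 in the PP libraries (0.19, adjusted p = 0.0456). That call was lost in 8 of the 13 alternative analyses, so its value is uncertain. *EIF5B*, which joins the ribosomal subunits, was at 19.1 ± 0.935 in PBS and 20.3 ± 1.48 in PP (0.078, adjusted p = 0.245). *EIF6*, which keeps the large subunit from joining too early, had an FPKM of 98.6, 99.4 and 103 in the PBS libraries and 113, 107 and 100.2 in the PP libraries. Its groups overlapped (log2 fold change 0.084, SE 0.045, adjusted p = 0.119), and without PP replicate 3 the log2 fold change was 0.13 with an adjusted p of 0.018.

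**Figure D2:**
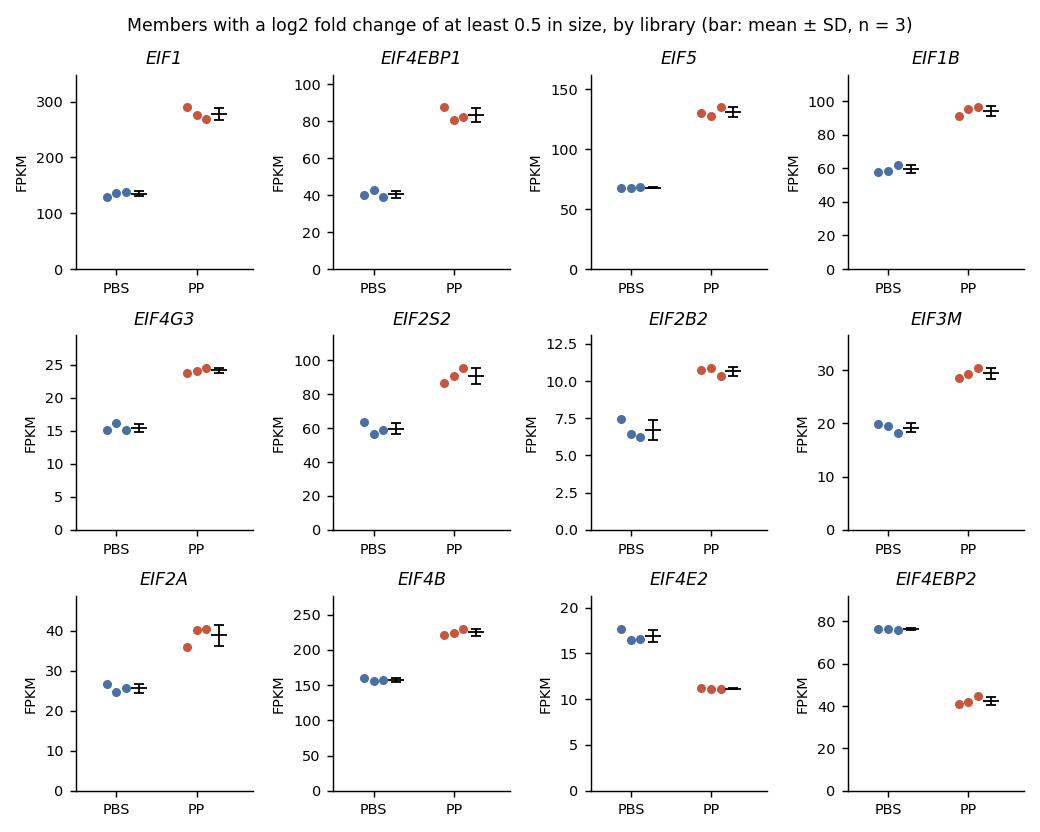
FPKM (y axis, from 0) of the 12 members called with a log2 fold change of at least 0.5 in size, in 3 PBS (blue) and 3 PP (red) libraries, with the mean ± SD beside them (n = 3). In each panel the points of the 2 treatments do not overlap. *EIF4EBP2* and *EIF4E2* are the panels in which PP is lower.

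The eIF2 group rose in 4 of 6 members, where 38.1% of all fitted genes were higher. Of its heterotrimer the α and β subunits were called and the γ subunit was not, and the difference between subunits was not tested. *EIF2S2*, which encodes the β subunit, had an FPKM of 63.4, 56.8 and 59.1 in the PBS libraries and 86.5, 90.5 and 95.6 in the PP libraries. All PP libraries were higher, with a ratio of means of 1.52 (log2 fold change 0.60, SE 0.049, adjusted p = 1.99e-06). *EIF2S1*, the α subunit that the stress kinases phosphorylate, was at 37.4 ± 0.793 in PBS and 53.1 ± 2.27 in PP (SD, n = 3; log2 fold change 0.49, SE 0.041, adjusted p = 1.94e-06). *EIF2S3*, the γ subunit that binds GTP and the initiator tRNA, had an FPKM of 65.8, 61.2 and 65.1 in the PBS libraries and 65.8, 66.0 and 66.0 in the PP libraries. Its groups overlapped and it was not called (log2 fold change 0.041, SE 0.037, adjusted p = 0.334). In PBS the libraries of the γ and β transcripts overlapped, whereas in PP every library had more β than γ.

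*EIF2A*, an alternative initiator tRNA carrier outside the trimer, had an FPKM of 26.8, 24.6 and 25.6 in the PBS libraries and 35.9, 40.2 and 40.5 in the PP libraries. All PP values exceeded all PBS values, by a ratio of means of 1.51 (log2 fold change 0.58, SE 0.053, adjusted p = 4.41e-06). *EIF2D*, known for recycling and reinitiation, was at 6.32 ± 0.242 in PBS and 7.43 ± 0.544 in PP (0.20, adjusted p = 0.0112). *EIF2S3B*, a retrocopy of *EIF2S3* with which it could share reads, was at 2.10 ± 0.393 in PBS and 2.56 ± 0.406 in PP and was not called (0.20, adjusted p = 0.118). The summed FPKM of the group was 195 ± 6.58 FPKM in PBS and 259 ± 8.98 FPKM in PP (SD, n = 3), a ratio of 1.32.

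Of the 5 subunits of eIF2B, 4 were higher with PP and 0 were lower, against 38.1% and 34.4% of all fitted genes. *EIF2B2*, the β subunit, was the least abundant in PBS and changed most. It was at 7.48, 6.43 and 6.26 in the PBS libraries and 10.7, 10.9 and 10.3 in the PP libraries, and the groups did not overlap. The ratio was 1.58 (log2 fold change 0.60, SE 0.064, adjusted p = 1.4e-05). *EIF2B1*, the α subunit of the regulatory core, had a log2 fold change of 0.20, adjusted p = 0.00536, and *EIF2B4*, the δ subunit, one of 0.17, adjusted p = 0.01. *EIF2B3*, the γ subunit, was called (0.30, adjusted p = 0.00821), but its highest PBS library, at 8.82 FPKM, was above its lowest PP library, at 8.71. *EIF2B5*, the catalytic ε subunit and the most abundant of the 5, was at 43.2, 41.9 and 41.0 in the PBS libraries and 44.4, 40.3 and 38.9 in the PP libraries. Its groups overlapped (log2 fold change -0.03, SE 0.05, adjusted p = 0.609). The summed FPKM of eIF2B had a ratio of 1.12.

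The eIF3 group, the many-subunit scaffold on the small ribosomal subunit, rose in 8 of its 13 fitted members and fell in 1. The background was 38.1% of all fitted genes higher and 34.4% lower. The summed FPKM of the group had a ratio of 1.09. *EIF3M* had an FPKM of 19.8, 19.6 and 18.2 in the PBS libraries and 28.5, 29.2 and 30.4 in the PP libraries. The PP libraries were all higher, by a ratio of means of 1.53 (log2 fold change 0.59, SE 0.046, adjusted p = 1.33e-06). *EIF3K*, the most abundant subunit in PBS, had an FPKM of 198, 191 and 184 in the PBS libraries and 167, 156 and 154 in the PP libraries. It was lower in all PP libraries and was the single subunit called lower, with PBS at 1.20 times PP (log2 fold change -0.26, SE 0.04, adjusted p = 0.000197). In PP the most abundant subunit was *EIF3G*, at 181 ± 7.16 FPKM against 159 ± 6.96 for *EIF3K*, and their 3 PP libraries did not overlap.

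By module, 5 of the 8 fitted octamer subunits (a, c, e, f, h, k, l and m) rose and 1 fell. The same background of 38.1% higher and 34.4% lower applies. The log2 fold change was 0.38 for *EIF3A*, 0.25 for *EIF3E*, 0.24 for *EIF3L* and 0.20 for *EIF3F*, all called. *EIF3H* was not (0.065, adjusted p = 0.119). In the module of b, g and i, which sits near the mRNA entry, *EIF3G* was called (0.25, adjusted p = 0.000164). *EIF3B* (0.014, adjusted p = 0.734) and *EIF3I* (-0.0041, adjusted p = 0.921) were not, and the sign of *EIF3B* turned with another scaling of the libraries. *EIF3D*, which can bind the cap of some mRNAs, and *EIF3J*, a loosely bound subunit, both rose (0.25 and 0.49, adjusted p = 0.000144 and 1.34e-06).

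*EIF3C* is the subunit with the least certain value. Its FPKM was 2.05, 4.09 and 4.54 in the PBS libraries and 7.34, 6.62 and 2.12 in the PP libraries, so the libraries of each treatment differed from each other by more than the treatments did (log2 fold change 0.40, SE 0.34, adjusted p = 0.304). Its near-identical copy *EIF3CL* was at 0.642, 0.657 and 0.460 in the PBS libraries and 0.687, 0.547 and 1.49 in the PP libraries and took from 7.63% to 41.3% of the FPKM of the pair. *EIF3CL* was highest in PP replicate 3, where *EIF3C* was lowest among the PP libraries. Without that library *EIF3C* had a log2 fold change of 0.85 and an adjusted p of 0.00672. *EIF3CL*, fitted with the filter lowered to 0.1 FPKM, had a log2 fold change of 0.24 and an adjusted p of 0.205.

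**Figure D3:**
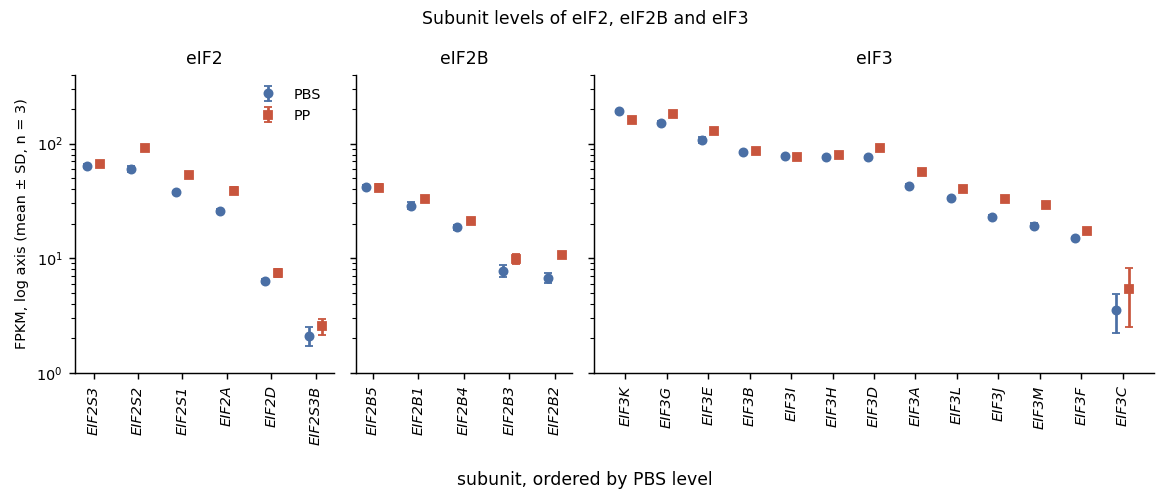
Mean FPKM ± SD (n = 3, log y axis) of the subunits of eIF2, eIF2B and eIF3 on the x axis, in PBS (blue circles) and PP (red squares), ordered by the PBS level. Most subunits lie higher in PP, *EIF3K* lies lower, and the mean ± SD ranges of *EIF2S3*, *EIF2S3B*, *EIF2B5*, *EIF3B*, *EIF3C*, *EIF3H* and *EIF3I* overlap. *EIF3CL* is not plotted.

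In the eIF4 group 5 of 12 members were called in each direction. Among all fitted genes 38.1% were higher and 34.4% lower, so both counts were near the background. The cap-binding genes *EIF4E*, *EIF4E2* and *EIF4E3* fell, as did the helicase genes *EIF4A1* and *EIF4A3*. The helicase gene *EIF4A2* rose, as did *EIF4B*, *EIF4ENIF1*, *EIF4G1* and *EIF4G3*. *EIF4E2*, a cap-binding protein that takes part in repression, had an FPKM of 17.7, 16.5 and 16.5 in the PBS libraries and 11.2, 11.1 and 11.1 in the PP libraries. The PBS libraries lay above all PP libraries, by a ratio of means of 1.52 (log2 fold change -0.56, SE 0.045, adjusted p = 1.58e-06). *EIF4E*, the main cap-binding protein (chr4:99800427-99850284, minus strand), had an FPKM of 17.2, 16.5 and 16.2 in the PBS libraries and 14.9, 14.9 and 14.6 in the PP libraries. Its decrease was small and without overlap (log2 fold change -0.16, SE 0.042, adjusted p = 0.0066). *EIF4E3* was also called lower (-0.17, adjusted p = 0.0316), and this call was lost in 5 of the 14 alternative analyses.

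Among the scaffolds, *EIF4G3* had an FPKM of 15.1, 16.2 and 15.2 in the PBS libraries and 23.8, 24.1 and 24.5 in the PP libraries. All PP libraries were higher, by a ratio of 1.56 (log2 fold change 0.61, SE 0.043, adjusted p = 6.08e-07). *EIF4G1*, the main scaffold, rose from 122 ± 0.254 to 143 ± 5.33 FPKM (0.22, adjusted p = 0.000189). *EIF4G2* (DAP5), which lacks the eIF4E-binding part, was at 306, 305 and 303 in the PBS libraries and 285, 294 and 297 in the PP libraries. It was not called (-0.061, adjusted p = 0.0843), although it was called with another scaling (adjusted p = 0.0442) and with limma-voom on recovered counts (adjusted p = 0.0301).

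*EIF4B*, the cofactor that stimulates the helicase, had an FPKM of 159.9, 155 and 157 in the PBS libraries and 220.5, 224 and 230.1 in the PP libraries. All PP values were higher, by a ratio of 1.43 (log2 fold change 0.51, SE 0.031, adjusted p = 1.91e-07). The helicases themselves were among the most abundant members and were called in opposite directions. *EIF4A1* was at 312, 322 and 338 in the PBS libraries and 297, 289 and 282 in the PP libraries, lower with PP (-0.16, adjusted p = 0.00258), and *EIF4A2* at 332, 334 and 323 in the PBS libraries and 352, 355 and 349.6 in the PP libraries, higher (0.094, adjusted p = 0.0123). The call of *EIF4A2* was lost without an intensity trend (adjusted p = 0.0595) and without PBS replicate 3 (adjusted p = 0.06). *EIF4A3*, the helicase of the exon junction complex, fell (-0.18, adjusted p = 0.00438). *EIF4H*, another helicase cofactor, was at 181, 198 and 202 in the PBS libraries and 202, 189.9 and 176 in the PP libraries with overlapping groups (-0.035, adjusted p = 0.575). *EIF4ENIF1*, which carries eIF4E into the nucleus and to P-bodies, rose (0.18, adjusted p = 0.00946).

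The 4E-BPs moved in opposite directions. *EIF4EBP1* (ENSG00000187840) had an FPKM of 39.9, 42.7 and 39.0 in the PBS libraries and 87.7, 80.4 and 82.5 in the PP libraries. The PP libraries were all higher, with means of 40.5 ± 1.93 in PBS and 83.5 ± 3.74 in PP (SD, n = 3) and a ratio of 2.06 (log2 fold change 1.03, SE 0.046, adjusted p = 2.26e-08). *EIF4EBP2* (chr10:72163901-72188374, plus strand) had an FPKM of 76.5, 76.5 and 75.8 in the PBS libraries and 40.8, 42.0 and 44.5 in the PP libraries. The PBS libraries were all higher, with means of 76.2 ± 0.412 in PBS and 42.4 ± 1.89 in PP and a ratio of PBS to PP of 1.80 (log2 fold change -0.83, SE 0.039, adjusted p = 3.12e-08). *EIF4EBP3* stayed under 0.45 FPKM in every library, from 5 to 10 recovered counts, and lies beside *ANKHD1*, with which a read-through transcript is annotated.

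In each PBS library *EIF4EBP2* was the main 4E-BP transcript, and in each PP library *EIF4EBP1* was. The share of *EIF4EBP1* in the summed 4E-BP FPKM was 34.2%, 35.7% and 33.9% in PBS and 68.1%, 65.5% and 64.7% in PP. That of *EIF4EBP2* was 65.6%, 64.0% and 65.9% in PBS and 31.7%, 34.3% and 34.9% in PP. Their sum moved little, from 117 ± 2.27 to 126 ± 3.20 FPKM, a ratio of 1.08. Per *EIF4E* transcript there were 6.79, 7.22 and 7.09 4E-BP transcripts by FPKM in PBS and 8.63, 8.22 and 8.74 in PP. The groups did not overlap in that quantity, which follows from the values above and was not tested apart.

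**Figure D4:**
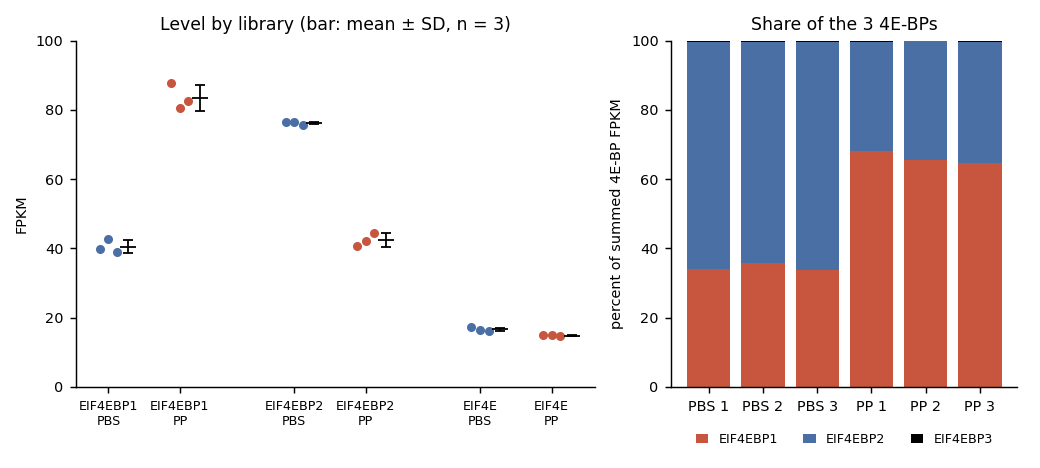
Left, FPKM of *EIF4EBP1*, *EIF4EBP2* and *EIF4E* in each library (points) with the mean ± SD (n = 3). Right, share of the 3 4E-BPs in their summed FPKM, in percent, for each library on the x axis, where *EIF4EBP1* rises from 34.6% to 66.1% on average and *EIF4EBP3* is barely visible.

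The balance within pairs was compared in 6 log2 ratios computed within each library and tested with an exact two-sided permutation test over the 6 libraries, with Benjamini-Hochberg adjustment over the 6 pairs. The groups did not overlap for any of the pairs, and each had an exact p and adjusted p of 0.1, the smallest that 3 against 3 libraries allow, so the test could not reach 0.05. Every gene of these pairs was itself called, and 75% of all single fitted genes did not overlap. The share for other gene pairs was not computed. The ratio of *EIF4EBP1* to *EIF4E* went from 2.43 in PBS to 5.63 in PP, a log2 difference of 1.21, and that of *EIF4EBP2* to *EIF4E* from 4.58 in PBS to 2.86 in PP, a log2 difference of -0.68. *EIF1* over *EIF1B* went from 2.28 in PBS to 2.96 in PP, with the ratio higher in all 3 PP libraries. *EIF4G1* over *EIF4G3* went from 7.91 in PBS to 5.92 in PP. *EIF4A1* over *EIF4A2*, close to equal at first, went from 0.980 in PBS to 0.821 in PP, and *EIF5A* over *EIF5A2* from 50.3 in PBS to 34.0 in PP, the pair with the widest spread between libraries.

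Levels across the members spanned a wide range. In both treatments 11 members had a mean of at least 100 FPKM and 10 a mean under 10. *EIF4A1*, *EIF4A2* and *EIF4G2* were the 3 most abundant, and in PBS the libraries of *EIF4A1* and *EIF4A2* overlapped. *EIF4E* was low beside its partners, at 16.7 ± 0.490 FPKM in PBS against 122 ± 0.254 for *EIF4G1*. *EIF4E* and *EIF4E2* had overlapping levels in PBS, and in PP every library had more *EIF4E*.

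Promoters of the members were searched in the RefSeq table (GRCh38.p14), from 250 bases before to 50 after the start, where 42 of the 50 members had an entry. *EIF4EBP1*, *EIF2S2*, *EIF3A*, *EIF3CL*, *EIF3E*, *EIF3G*, *EIF3H* and *EIF3L* were not searched. The E-box CACGTG, which reads the same on both strands and is known to bind MYC and MAX family proteins, was in 11 of the 42, or 26.2%, against 10.4% of the 9557 fitted genes with an entry and 7.43% of all 27305 promoters in the table. Windows of 30 bases are shown for 5 of the 11, the eIF4 members *EIF4E*, *EIF4G1*, *EIF4B* and *EIF4A3* and the eIF1 member *EIF1B*, since these hold the motif while moving in different directions. They are written along the gene's strand, with the motif in capitals and its position relative to the start.
*EIF4E*, minus strand, chr4:98929341-98929370, capitals at -225 to -220: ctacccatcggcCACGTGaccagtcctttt
*EIF4E*, minus strand, chr4:98929188-98929217, capitals at -72 to -67: ggacatatccgtCACGTGgccagaagctgg
*EIF4G1*, plus strand, chr3:184314450-184314479, capitals at -144 to -139: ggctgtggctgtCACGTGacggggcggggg
*EIF4G1*, plus strand, chr3:184314527-184314556, capitals at -67 to -62: ccctgcgccggtCACGTGggggcgccggct
*EIF4B*, plus strand, chr12:53006422-53006451, capitals at -22 to -17: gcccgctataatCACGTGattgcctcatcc
*EIF4A3*, minus strand, chr17:80147232-80147261, capitals at -121 to -116: ccagttccctttCACGTGacgaagagtgcc
*EIF1B*, plus strand, chr3:40309641-40309670, capitals at -54 to -49: gcgcgggacggtCACGTGggaggggccgcg

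The E-box was present in 6 of the 20 promoters of members that rose, or 30%, and in 3 of the 8 of members that fell, or 37.5%. Among fitted genes called higher by at least 0.5 its share was 12.9%, against 10.4% of all fitted genes. *EIF1B*, *EIF4B* and *EIF4G1* above rose and *EIF4E* and *EIF4A3* fell. The motif TGATGNAA, the core of the element that ATF4 and its partners bind, was searched on both strands and was in 0 of the 42 member promoters. It was in 1.56% of fitted genes, 3.17% of those called higher by at least 0.5 and 3.67% of all promoters. At such low shares, 0 of 42 does not set the members apart. The 8 members not searched include *EIF4EBP1* and *EIF2S2*, which are among those with the largest rises. A start with C followed by 4 pyrimidines, the pattern of mRNAs under mTOR and LARP1 control, was at the annotated RefSeq start of 10 of the 42, or 23.8%, against 5.59% of fitted genes and 66.2% of 65 cytosolic ribosomal protein genes. These 10 were *EIF2A*, *EIF2D*, *EIF2S3*, *EIF2S3B*, *EIF3D*, *EIF3F*, *EIF3K*, *EIF3M*, *EIF4A2* and *EIF4B*. The pattern was at the start of 7 of the 20 members that rose, or 35%, and 1 of the 8 that fell, or 12.5%. Among fitted genes called higher by at least 0.5 it was at 5.77%, beside the 5.59% of all fitted genes. With so few member promoters, no link to direction is drawn. A match is a description of these letters at an annotated start and is not a measured site.

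The genes that control eIF2 were followed as a list of 12, of which 8 were higher, 2 lower and 2 not called, with a median log2 fold change of 0.47. Of all fitted genes, 38.1% were higher and 34.4% lower, and this background holds for each list below. *PPP1R15A* (GADD34), the stress-induced subunit of the eIF2α phosphatase, had an FPKM of 35.1, 35.7 and 34.7 in the PBS libraries and 203, 210.1 and 211 in the PP libraries. The groups were far apart (log2 fold change 2.53, SE 0.033, adjusted p = 2.63e-11). Its constitutive counterpart *PPP1R15B* was at a log2 fold change of 0.46, adjusted p = 4.47e-06. Of the eIF2α kinases, *EIF2AK3* (PERK) rose from 10.9 ± 0.302 to 23.0 ± 0.336 FPKM (1.01, adjusted p = 1.24e-08) and *EIF2AK1* (HRI) rose slightly (0.12, adjusted p = 0.0143), a call lost in 2 of the 14 alternative analyses. *EIF2AK2* (PKR) fell (-0.20, adjusted p = 0.00187) and *EIF2AK4* (GCN2) was not called (-0.06, adjusted p = 0.349). *ATF4*, whose translation rises when eIF2 is limiting, had a log2 fold change of 0.65, adjusted p = 6.76e-07, and *DDIT3* (CHOP), one of its targets, 1.92, adjusted p = 1.07e-10. *DELE1*, which relays mitochondrial stress to HRI, fell (-0.55, adjusted p = 4.65e-06).

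The genes of mTOR and MNK control of eIF4 were a list of 16, of which 7 were higher, 3 lower and 6 not called, with a median of 0.16. The background was 38.1% of all fitted genes higher and 34.4% lower, so the count of higher genes was near it. *SESN2* and *DDIT4* (REDD1), stress-induced inhibitors of mTORC1, rose, with log2 fold changes of 2.02, adjusted p = 3.42e-10, and of 1.27, adjusted p = 4.85e-08. *MKNK2* (MNK2), a kinase of eIF4E, had an FPKM of 63.4, 67.1 and 65.7 in the PBS libraries and 189, 189 and 182 in the PP libraries, with the groups far apart (log2 fold change 1.50, SE 0.035, adjusted p = 2.75e-10), while *MKNK1* was not called (0.087, adjusted p = 0.273). *AKT1S1* (PRAS40), *RPTOR* and *TSC1* fell (-0.53, -0.34 and -0.16, adjusted p = 7.44e-06, 0.000134 and 0.0218), and the call of *TSC1* was lost in 4 of the 14 alternative analyses. *MTOR* was not called (-0.087, adjusted p = 0.19). *PDCD4*, which sequesters eIF4A, rose (0.37, adjusted p = 5.65e-05).

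Cofactors of initiation outside the EIF symbols were a list of 17, of which 12 were higher, 2 lower and 3 not called, with a median of 0.18. Among all fitted genes 38.1% were higher and 34.4% lower. *CTIF*, which acts with the nuclear cap-binding complex, had a log2 fold change of 1.08, adjusted p = 5.83e-08. *ABCE1*, the ribosome recycling ATPase, had one of 0.81, adjusted p = 1.9e-06, and *PABPC1*, the poly(A)-binding protein that contacts eIF4G, one of 0.37, adjusted p = 0.000176. The helicase gene *DDX3X* (-0.13, adjusted p = 0.00837) and *PAIP2*, an inhibitor of poly(A)-binding protein (-0.11, adjusted p = 0.0219), fell, and the call of *PAIP2* was lost in 5 of the 14 alternative analyses.

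**Figure D5:**
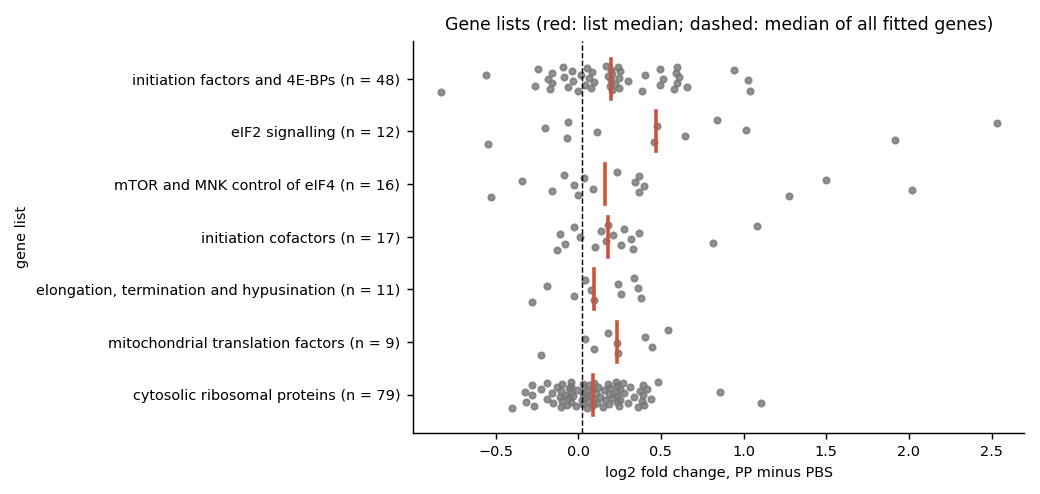
Log2 fold change (PP minus PBS, x axis) of each fitted gene (grey points) in the initiation factors and 4E-BPs and in 6 lists of translation genes (y axis), with the list median in red and the median of all fitted genes as a dashed line. The initiation factors have a median of 0.20 and the cytosolic ribosomal proteins one of 0.087, and the widest points belong to eIF2 signalling.

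Across the libraries, recovered totals ran from 29064253 to 32481171 counts, and every fitted member had at least 92 counts in each library, the lowest being *EIF5AL1*. Within treatments the chi-square of these counts per degree of freedom was 3.36 to 6.91 and between treatments 144 to 164, so no pair of libraries looked like a repeat deposit. The 6 neuroendocrine markers *CHGA*, *CHGB*, *SYP*, *ENO2*, *NCAM1* and *INSM1* all had a mean of at least 1 FPKM, and their summed FPKM was 204 to 216 in PBS and 166 to 182 in PP. The luminal prostate marker *TMPRSS2* was at 0.770 to 1.27 FPKM in PBS and 0.308 to 0.566 in PP. The luminal markers *KLK2* and *KLK3* were absent from the deposited values. The summed FPKM ran from 4.0 to 4.40 in PBS and 4.42 to 4.79 in PP for 4 fibroblast markers, 1.40 to 1.71 and 1.31 to 1.81 for 4 leukocyte markers, and 4.25 to 4.69 and 2.96 to 3.38 for 3 endothelial markers, with *PTPRC* and *PECAM1* at or near 0. The neuroendocrine markers did not move together. *CHGA* was at 42.4 to 44.1 FPKM in PBS and 23.5 to 25.5 in PP, and *CHGB* and *SYP* were also lower in every PP library. *ENO2* was lower in every PP library as well, while *NCAM1* overlapped and *INSM1* was higher in PP, at 18.2 to 20.5 against 15.4 to 17.2 FPKM. The part of these values in the member changes was not tested.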

How the data were processed

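The authors deposited 1 table of FPKM values for 17177 gene symbols in 6 libraries, with all 6 columns used. The paper's methods name Bowtie, hg19, RSEM, Cufflinks and HTSeq, whereas the submitters' processing notes name fastp, HISAT2, HTSeq and GRCh38, and which of these gave the deposited FPKM, and with which strand setting, is not given in the sources used here. The methods give 2 samples per group, and the labels and a legend give 3. Groups came from the sample labels.

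Values were analysed as log2(FPKM + 1) with limma 3.58.1 in R 4.3.3 (lmFit, eBayes with trend) over the 11726 genes whose mean FPKM reached 1, with Benjamini-Hochberg adjustment over all of them. The fold change understates that of low genes. Whole counts were recovered from the FPKM steps for all 17177 genes (tolerance 0.01 of a count), giving 29064253 to 32481171 counts per library. These were used for depth and for limma-voom. Differences in the log2 ratio of member pairs were tested with exact permutation in Python 3.11.15 (numpy 2.4.6, pandas 2.3.3, scipy 1.17.1). The steps were run on simulated data. The changed genes there were far fewer than those called here and all changed by the same size, so smaller changes were not covered.

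Every member could be named. Those called with a log2 fold change of at least 0.5 in size, and the ends of each factor group, are given in every library, and at most 3 genes at each end of the other lists were named, plus a fixed set of regulators. The members and lists were chosen with earlier results of these data known. Alternatives varied the pseudocount (0.1), the filter (none, 0.1 or 5), scaling by size factors, the trend, the replicate block, limma-voom, members with near-identical copies, and each library left out. Promoters are from RefSeq (GRCh38.p14), gene coordinates and leaders from GENCODE 44 on GRCh37. The results for some marker genes are not reported here. No sequence is printed for *EIF4EBP1*, *EIF3E* and *EIF3H*.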

Additional observations from a re-analysis of the deposited data

How the results depend on the processing

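The number of members called higher ran from 24 to 27 and lower from 7 to 9 over the alternatives, against 26 and 8. At a log2 fold change of at least 0.5 it was 9 to 12 higher and 2 lower. Past the study's cutoff with P under 0.001, taken here as unadjusted, 0 were lower throughout. The count past that cutoff upward, 2, was 1 to 2 with a library left out, and it was 1 without PBS replicate 3 and without PP replicate 1. The median log2 fold change of members, 0.20, was 0.21 with a pseudocount of 0.1, 0.18 with size factors and 0.21 with limma-voom, and 0.17 to 0.19 with a library left out. Over all genes, 3529 to 4736 were higher and 3031 to 4458 lower. The 6 pair ratios kept their direction. None of the 12 members with a log2 fold change of at least 0.5 in size lost its call. Size factors moved the median of all genes by -0.013 on the log2 scale, and among members this turned the sign of *EIF3B* alone, which was not called.

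The replicate numbers are shared between treatments. Deviations of same-numbered libraries correlated at -0.21, -0.014 and -0.13, so same-numbered libraries did not deviate alike. The labels do not say whether they were set up together, and these correlations cannot decide it. With the replicate block, 4260 genes were higher and 3878 lower, and 25 members were higher and 8 lower, since *EIF5A2* lost its call (adjusted p = 0.0606). The block changed no other member's call, and the pair ratios kept their values. At this depth the members near 1 FPKM, *EIF5A2*, *EIF5AL1* and *EIF2S3B*, are the least certain, and *EIF3C* depended on 1 library.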

Other observations

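Of 11 fitted elongation, termination and hypusination genes, 6 were higher, 2 lower and 3 not called, with a median log2 fold change of 0.094. Among all fitted genes 38.1% were higher and 34.4% lower. *EEF1B2*, an exchange subunit of elongation factor eEF1, had a log2 fold change of 0.38, adjusted p = 3.53e-06, the translocase gene *EEF2* 0.36, adjusted p = 2.27e-05 and the release factor gene *GSPT1* 0.34, adjusted p = 5.4e-05. *EEF2K*, the kinase that inhibits eEF2, fell (-0.28, adjusted p = 0.00299). The hypusine enzymes that modify eIF5A were called in opposite directions, *DHPS* lower (-0.19, adjusted p = 0.00305) and *DOHH* higher (0.24, adjusted p = 0.00759), beside the lower *EIF5A*.

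Of 9 mitochondrial translation factors, 6 were higher, 1 lower and 2 not called, with a median of 0.24. For this list and the next, the background was 38.1% of all fitted genes higher and 34.4% lower. The mitochondrial initiation factors *MTIF2* (0.54, adjusted p = 6.1e-06) and *MTIF3* (0.45, adjusted p = 0.000303) and the recycling factor *GFM2* (0.40, adjusted p = 5.54e-05) rose, and the elongation factor *TUFM* fell (-0.23, adjusted p = 0.000451). Of 79 fitted cytosolic ribosomal protein genes, 39 were higher, 16 lower and 24 not called, with a median of 0.087. The highest were *RPL22L1* (1.10, adjusted p = 1.28e-07) and *RPL12* (0.86, adjusted p = 5.04e-09), and the lowest was *RPS9* (-0.40, adjusted p = 2.79e-05). Ribosomal protein genes have many processed copies, so these values are uncertain where reads could be split.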
